A study of Mus musculus with 51 samples.

Results

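The comparison described here is that of primary mouse embryonic fibroblasts (MEFs) with a knock out of HMGN3 and of their wild type (WT) counterparts, across all genes measured. The arrays were chosen by their labels and number 6, with 3 of each genotype, out of 51 in the series. Both groups were primary MEFs of strain C57BL/6 grown in DMEM with 10% FCS, and they were labelled as HMGN3 knock out and HMGN3 WT. The other 12 primary MEF arrays, with knock outs and WT groups for HMGN1 and HMGN5, lent their spread between replicates to the test. They also counted in the filter on dim probe sets and in the choice of the probe set for each gene. The set of genes tested thus depended on them as well. The wider series asks how loss or gain of single HMGN proteins alters transcription. The labels attach a retroviral infection with puromycin selection to every sample, whereas the series design ties infection to overexpression in SV40-transformed MEFs and MIN6 cells, so whether these primary cells were infected is not known. The sources used here do not say which part of Hmgn3 was deleted, nor how embryos and cultures relate to the 3 replicates. The p-values therefore measure only the spread between these arrays, which may be technical.

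HMGN proteins are small, abundant nuclear proteins that bind the nucleosome core and loosen the packing of chromatin, in part by competing with linker histone H1. HMGN3 is a member of the family best known from studies of the eye, the brain and the hormone-producing cells of the pancreas. The largest group of genes that differed here belongs to the interferon system. In that system a secreted interferon binds its receptor, JAK kinases phosphorylate STAT factors, and these enter the nucleus to switch on a large set of antiviral genes.

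Levels are log2 values of the deposited intensity, and each difference is knock out minus WT on that scale with its standard error (SE), n = 3 arrays per group. A gene was called when limma gave it a Benjamini-Hochberg adjusted p below 0.05 over all genes tested. Median intensities lay between 5.75 and 5.82 in the knock out arrays and between 5.59 and 5.93 in the WT arrays. Probe sets were left out as dim when no primary MEF group had a mean of at least log2 1.99 (the filter level). All 11 fibroblast markers were above this level, and their summed intensity was 23600 to 24200 in the knock out and 22500 to 23600 in WT. Macrophage and leukocyte markers were also present, with 16 of 18 above that level and Itgam below it. Their summed intensity was 2000, 1300 and 1750 in knock out arrays 1, 2 and 3 and 1440 to 1580 in WT. Of the 16, 0 were called by limma (0 in either direction at an unadjusted p below 0.05). The spread in that test came from all 18 arrays, and the same sum ran from 468 to 2300 within the HMGN5 knock out. Differences in these markers were thus hard to detect, and the 0 does not show equal content. Of 10 endothelial markers 5 passed the filter, while Pecam1, Cdh5, Tek, Tie1 and Vwf lay below it in both groups. Of 10 epithelial markers 6 passed, with Cdh1, Krt7, Cldn4 and Esrp1 below. Muscle markers passed in 7 of 10, neuron and glia markers in 8 of 13 and cartilage and bone markers in 5 of 11. Among those that passed, Tnnt1 (muscle) and Map2 (neurons) lay below the level in both HMGN3 groups and passed through other primary MEF groups. Adipocyte markers passed in 5 of 8. Their summed intensity was 159 to 196 in the knock out and 137 to 144 in WT, and 0 were called. Xist was 2.40 to 2.72 in the knock out and 2.65 to 2.73 in WT, so no array stood apart in this respect.

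Hmgn3 itself was lower in every array labelled as knock out. Its brighter probe set read 6.22, 6.27 and 6.25 in the knock out and 7.48, 7.59 and 7.57 in WT. The groups did not overlap, and the difference was -1.30 ± 0.08 (limma adjusted p = 2.03e-07), which leaves 0.407 of the WT signal. The dimmer probe set read 4.63, 4.44 and 4.54 in the knock out and 6.14, 6.06 and 5.80 in WT, a difference of -1.46 ± 0.10 that leaves 0.364. Both probe sets moved in the direction of the label. Neither fell to the level of the dim filter, and a probe outside the deleted part would check nothing. For Hmgn1, another member of the family, 3 probe sets were bright and differed by -0.05, 0.02 and -0.01. Hmgn5 differed by 0.04 ± 0.12. Neither Hmgn1 nor Hmgn5 was called.

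**Figure D1:**
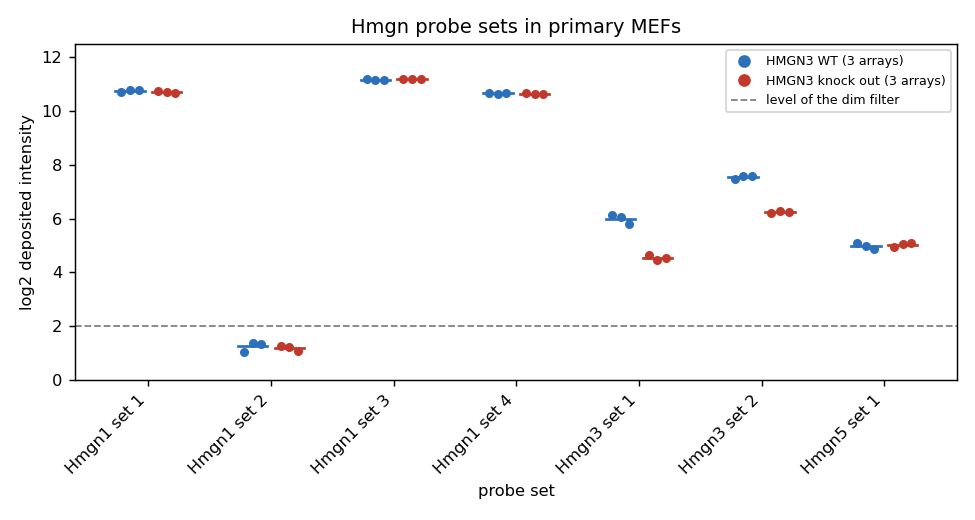
Log2 deposited intensity (vertical axis) of each Hmgn probe set with a single gene symbol (horizontal axis) in the 3 WT and 3 knock out arrays, with short lines at the group means. Both Hmgn3 probe sets are lower in all 3 knock out arrays, and the Hmgn1 and Hmgn5 points of both groups lie together.

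Of 13674 genes tested, 80 were called (0.585%), with 66 higher (0.483%) and 14 lower (0.102%) in the knock out. The called rises ran from 0.26 to 1.88 and the called falls from -0.42 to -1.30. The median difference over all genes was -0.007, and 46.9% of genes were above 0. None of the 80 called genes overlapped between the groups, against 7.09% of all genes for a rise without overlap and 8.8% for a fall. At an unadjusted p below 0.05 there were 1158 genes (8.47%), 524 higher (3.83%) and 634 lower (4.64%). Rises thus outnumbered falls among called genes but not at the unadjusted threshold. The count of 80 became 34 and 31 without knock out replicate 2 or 3 and 42, 39 and 43 without WT replicate 1, 2 or 3. The count of 66 became 29, 24, 37, 33 and 33 in the same order, and the count of 14 became 5, 7, 5, 6 and 10. Without knock out replicate 1 the count of falls was 26.

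**Figure D2:**
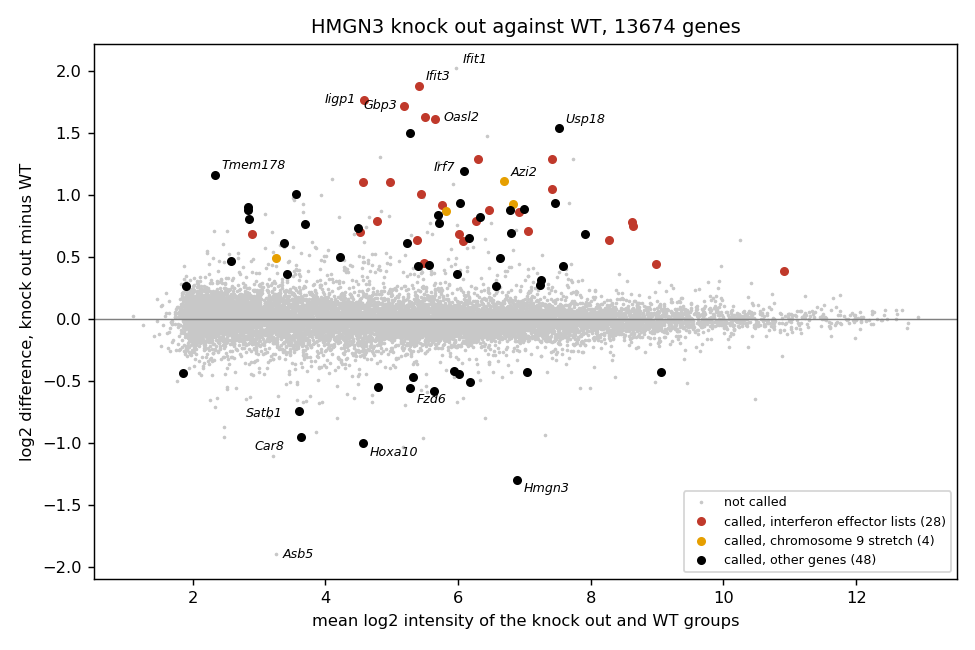
Difference between knock out and WT (vertical axis, log2) against the mean log2 intensity of both groups (horizontal axis) for 13674 genes. The 28 called interferon effectors (red) all lie above 0, the 4 genes of the chromosome 9 stretch (orange) lie between 0.49 and 1.11, and Hmgn3 is the lowest of the called genes.

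None of the interferon receptor genes was called, and the interferon genes were too dim to test. The 4 interferon genes with a probe set, Ifnb1, Ifna2, Ifna4 and Ifng, were below the dim filter in both groups and were not tested. Ifnb1, the fibroblast interferon, had a mean of 1.60 in the knock out and 1.66 in WT. Of the 6 receptor chains, 0 were called (limma; 1 higher at an unadjusted p below 0.05), with a median difference of -0.004. Ifnar1 and Ifnar2, which form the receptor for type I interferons, differed by -0.02 ± 0.08 and 0.14 ± 0.06. Ifngr1 and Ifngr2, the receptor for interferon gamma, differed by -0.01 ± 0.09 and 0.04 ± 0.12.

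Among 10 measured genes of JAK-STAT signalling, 1 was called higher and 0 lower. This was Stat2, a transcription factor of the type I response. It read 3.90, 4.15 and 4.17 in the knock out and 3.38, 3.25 and 3.31 in WT, and the difference was 0.76 ± 0.14 (limma adjusted p = 0.0166). The Stat2 groups were well apart, though the call was lost in 5 of the 6 fits that left out an array, with an adjusted p of up to 0.107. Nmi, a STAT-interacting protein, differed by as much but was not called (0.77 ± 0.17, limma adjusted p = 0.0615). The kinases Jak1 (0.03) and Tyk2 (-0.02) and the factor Stat3 (-0.03) were bright or moderate and near 0.

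Of 8 measured interferon regulatory factors, Irf7 was called higher and the other 7 were not called. Irf7 is the factor that amplifies type I interferon production and is itself interferon-induced. It read 6.53, 6.82 and 6.71 in the knock out and 5.51, 5.54 and 5.43 in WT. The lowest knock out array lay above the highest WT array, and the rise was 1.19 ± 0.15 (limma adjusted p = 0.000851), a call kept in all 6 leave-one-out fits. Irf9, which joins STAT2 on DNA in the type I response, differed by 0.43 ± 0.16, and Irf1 by 0.24 ± 0.07. Their groups did not overlap, but neither was called. Irf3, which is present before infection and is activated by phosphorylation, differed by -0.04 ± 0.05.

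Sensors of viral nucleic acid formed a larger group, with 6 of 20 measured genes higher and 0 lower. Their median difference was 0.07, so most of the group lay near the median of all genes. The 3 RNA helicases of the RIG-I family all rose. Ifih1, which encodes MDA5, read 7.25, 7.21 and 7.22 in the knock out and 6.42, 6.36 and 6.28 in WT (0.88 ± 0.19, limma adjusted p = 0.0494). Ddx58, which encodes RIG-I itself, read 7.12, 7.15 and 7.17 against 6.52, 6.43 and 6.41 (0.69 ± 0.10, limma adjusted p = 0.00461). Dhx58, which encodes the regulator LGP2, was dimmer, at 3.21, 3.28 and 3.39 against 2.24, 2.46 and 2.48 (0.90 ± 0.16, limma adjusted p = 0.0131). For each of the 3 helicases every knock out array was above every WT array. Ddx58 was kept in all 6 leave-one-out fits, Dhx58 was lost in 3 and Ifih1 in all 6. Zbp1, a sensor of Z-form nucleic acid, rose by 1.00 ± 0.11 (limma adjusted p = 0.000156). A dimmer probe set of Zbp1 differed by 0.36 ± 0.12, with overlapping groups and without a call. Trim25, the ubiquitin ligase that acts on RIG-I, rose by 0.31 ± 0.06 (limma adjusted p = 0.0385) and was lost in 5 of 6 leave-one-out fits.

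The sixth called gene of the sensing pathway, Azi2, encodes an adaptor of the kinase TBK1 and is described with its chromosomal neighbours. The kinase Tbk1 itself (-0.06), its other adaptor Tank (-0.03), the mitochondrial adaptor Mavs (-0.05), Sting1 (0.03) and Cgas (0.04) were not called. Tlr3, a receptor for double-stranded RNA, differed by 0.57 ± 0.13 without overlap and was not called (limma adjusted p = 0.0749).

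Usp18 was the called member among 7 measured genes of ISG15 conjugation and feedback. Its product removes ISG15 from proteins and dampens signalling at the type I receptor. Usp18 read 8.19, 8.35 and 8.32 in the knock out and 6.75, 6.75 and 6.76 in WT. The WT arrays were nearly identical, and the difference was 1.54 ± 0.27, or 2.9-fold (limma adjusted p = 0.0131). It was lost in 5 of 6 leave-one-out fits, with an adjusted p of up to 0.0766. The conjugating enzyme Ube2l6 (0.71 ± 0.19), the activating enzyme Uba7 (0.40 ± 0.10) and the ligase Herc6 (0.31 ± 0.12) did not overlap between groups and were not called. Socs1 (-0.14) and Socs3 (0.18), inhibitors of JAK kinases, were not called either.

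**Figure D3:**
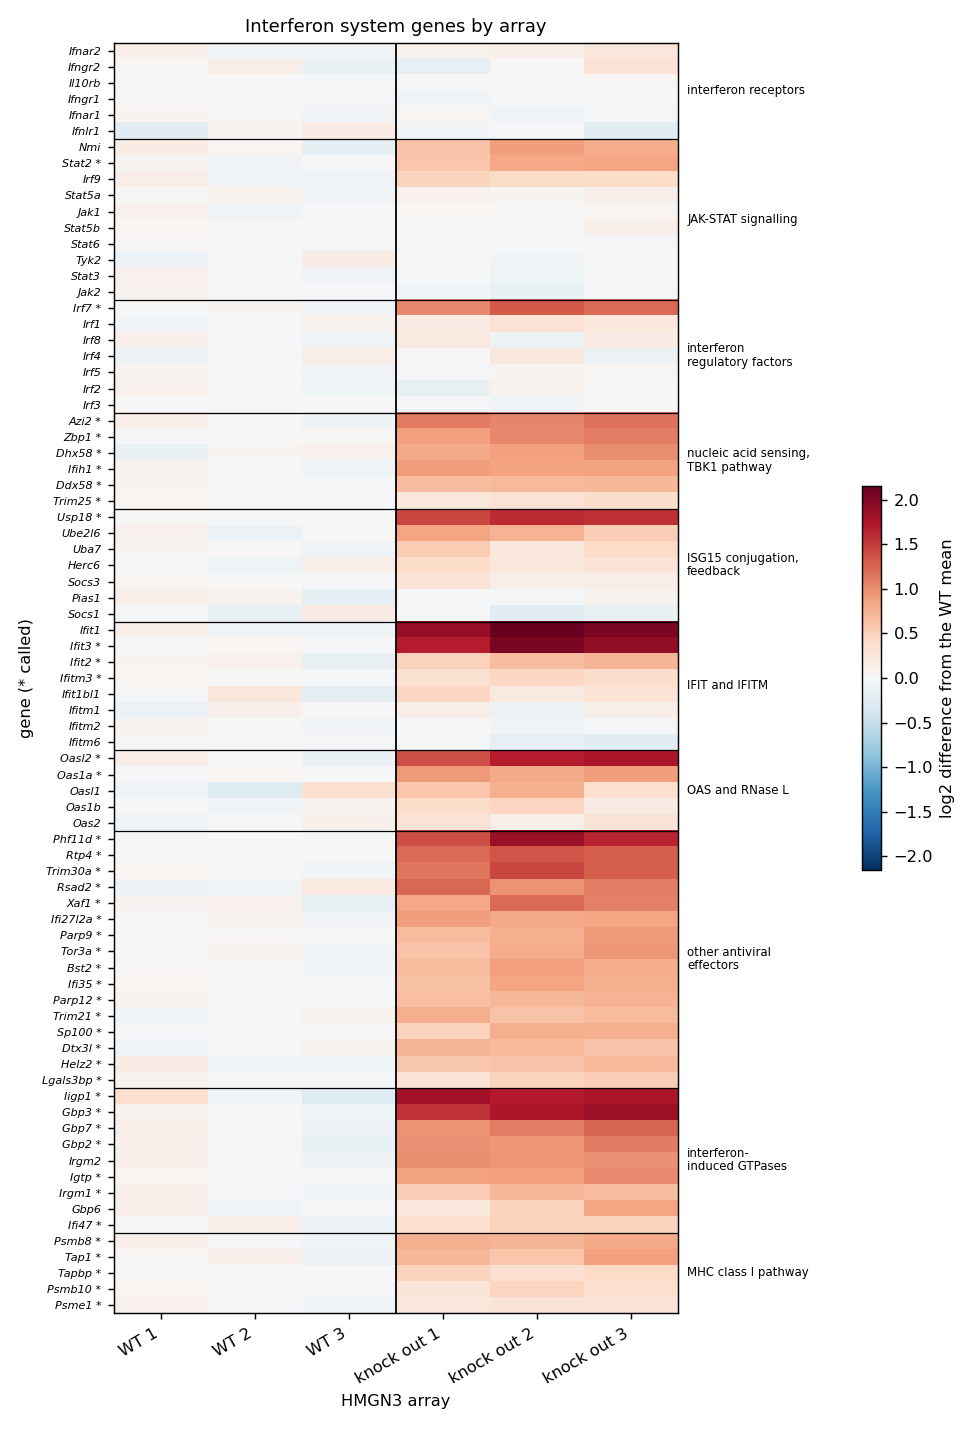
Each cell is the log2 value of a gene (rows, grouped by role) in an array (columns) minus the mean of the 3 WT arrays, with red above and blue below it and called genes starred. Receptors are pale in all 6 arrays, while the called effectors are red in all 3 knock out arrays. For the sensing, other antiviral and MHC class I groups only called members are drawn.

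The effectors of the interferon response gave 28 of the 66 called rises. Over the 4 lists of effectors together, 58 of 75 members were measured, of which 28 were higher, 0 lower and 30 not called. Their median difference was 0.64, beside -0.007 for all genes, and 54 of 58 were above 0. Rises without overlap numbered 47 of 58, against 7.09% of all genes. The mean level of the 58 genes was 5.75, 5.81 and 5.82 in the knock out arrays and 5.15, 5.12 and 5.07 in the WT arrays. For scale, the same mean was 4.07 ± 0.05 (SD, n = 3) in the WT group of the HMGN1 set and 5.10 ± 0.22 (SD, n = 3) in that of the HMGN5 set, where single arrays spanned 4.87 to 5.31. WT cultures of different sets thus also differed at these genes, and whether culture and genotype each contribute cannot be told apart here. The macrophage and leukocyte marker sums of knock out arrays 1, 2 and 3 were 2000, 1300 and 1750. Whether these sums and the effector means are linked was not tested. In bulk RNA, more cells expressing a gene and more RNA per cell cannot be told apart. The count of 28 became 13 and 10 without knock out replicate 2 or 3 and 17, 16 and 15 without WT replicate 1, 2 or 3, while the median stayed between 0.62 and 0.66.

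Of 9 interferon-induced GTPases measured, 7 were called higher, and all 9 rose without overlap between the groups (7.09% of all genes did). Their median difference was 0.98. These proteins coat and disrupt the vacuoles in which intracellular parasites live, and they fall into the guanylate-binding (Gbp) and immunity-related (Irg) families, whose members are similar in sequence. Gbp3 read 5.88, 6.07 and 6.16 in the knock out and 4.38, 4.36 and 4.24 in WT (1.71 ± 0.24, limma adjusted p = 0.0023). Iigp1 read 5.51, 5.42 and 5.47 in the knock out and 4.07, 3.62 and 3.43 in WT (1.76 ± 0.32, limma adjusted p = 0.0166). The spread of Iigp1 lay in the WT arrays, and its second probe set rose as well, by 1.26. Gbp7 rose by 1.11, Gbp2 by 1.01, Igtp by 0.92, Irgm1 by 0.64 and Ifi47 by 0.45. Irgm2 (0.98 ± 0.26) and Gbp6 (0.52 ± 0.12) were not called. Gbp3 was kept in all 6 leave-one-out fits, Gbp7 and Igtp were lost only without knock out replicate 3 (adjusted p = 0.0534 and 0.0605), and Irgm1 without knock out replicate 2 or 3 (0.0562 and 0.0511). Gbp2 was lost in all 6, and Iigp1 and Ifi47 in 4 each.

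Among the IFIT and IFITM genes, 3 of 8 were higher. IFIT proteins bind foreign RNA and block its translation, and IFITM proteins hinder the entry of viruses into cells. Ifit3 had the largest difference of any called gene, at 6.16, 6.50 and 6.38 in the knock out and 4.44, 4.51 and 4.46 in WT. That is a difference of 1.88 ± 0.33, or 3.67-fold (limma adjusted p = 0.0138). It was lost in 5 of 6 leave-one-out fits, with an adjusted p of up to 0.0809. Ifit1 had a larger difference, the largest of any gene tested, at 2.02 ± 0.44, but was not called (limma adjusted p = 0.0544). The other HMGN sets set its spread, since the SE was 0.09 and the adjusted p 0.000128 with only the 6 compared arrays in the fit. Ifit2 rose by 0.63 ± 0.11. Ifitm3, the brightest of the called effectors at a mean of 11.11 against 10.72, rose by 0.38 ± 0.07. Ifit2 was lost in 3 of the leave-one-out fits and Ifitm3 in 4. Ifitm2 (-0.03) and Ifitm1 (0.05) were not called.

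The OAS family, whose enzymes make the second messenger that activates RNase L, had 2 of 5 measured members called higher. Oasl2 read 6.23, 6.54 and 6.61 in the knock out and 4.99, 4.86 and 4.70 in WT (1.61 ± 0.20, limma adjusted p = 0.000851). Oas1a read 6.95, 6.84 and 6.93 against 6.00, 6.07 and 6.02 (0.88 ± 0.10, limma adjusted p = 0.000417). Both were kept in all 6 leave-one-out fits. Oasl1 (0.57), Oas1b (0.35) and Oas2 (0.23) were higher in every knock out array than in any WT array but were not called.

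Of 36 other antiviral effectors, 16 were higher and 20 not called, with a median difference of 0.66. Phf11d, a PHD finger protein of a gene cluster with similar members, read 6.07, 6.54 and 6.32 in the knock out and 4.71, 4.68 and 4.66 in WT (1.62 ± 0.25, limma adjusted p = 0.00461). Rsad2, which encodes viperin, rose by 1.10 ± 0.19 and each of its 3 probe sets was called. Rtp4 rose by 1.29 ± 0.24, Trim30a by 1.29 ± 0.25 and the apoptosis factor Xaf1 by 1.04 ± 0.23. Bst2, which encodes tetherin and holds budding virus at the cell surface, was bright and read 8.92, 9.11 and 9.03 against 8.26, 8.26 and 8.18 (0.78 ± 0.12, limma adjusted p = 0.00393). Bst2, Phf11d, Ifi35 (0.75), Ifi27l2a (0.86), Parp12 (0.70) and Sp100 (0.68) were kept in all 6 leave-one-out fits. Xaf1, Trim21 and Helz2 were lost in all 6, Rtp4, Trim30a and Parp9 in 5 each, Rsad2, Tor3a and Dtx3l in 3 each and Lgals3bp without knock out replicate 3 (adjusted p = 0.0519). Parp9 (0.79) and its partner Dtx3l (0.68), Tor3a (0.79), Trim21 (0.70), Helz2 (0.63) and Lgals3bp (0.44) completed the called members. Eif2ak2, which encodes the kinase PKR (0.41 ± 0.10), Mx2 (0.48 ± 0.12) and Parp14 (0.87 ± 0.20) were not called, without overlap between groups.

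Antigen presentation through MHC class I had 5 of 18 measured genes higher and 0 lower, with a median of 0.20. Psmb8, a catalytic subunit of the immunoproteasome, read 6.09, 6.06 and 6.14 in the knock out and 5.44, 5.30 and 5.23 in WT (0.77 ± 0.12, limma adjusted p = 0.00461). The peptide transporter subunit Tap1 rose by 0.73 ± 0.13, the loading factor Tapbp by 0.43 ± 0.07, the proteasome subunit Psmb10 by 0.36 ± 0.07 and the proteasome activator Psme1 by 0.27 ± 0.06. Psmb8 and Tapbp were kept in all 6 leave-one-out fits, whereas Tap1 was lost in 3 and Psmb10 and Psme1 in 5 each. The class I chains H2-K1 (0.16 ± 0.22) and H2-D1 (0.13 ± 0.22), whose probes can read related chains, and B2m (0.11 ± 0.07) were bright and not called. Of 4 measured MHC class II genes, 0 were called (limma; 0 unadjusted), and the highest of them, H2-DMa, had a mean of 2.73 against 2.60.

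Chemokines and inflammatory genes divided. Cxcl10, a chemokine induced by interferons that attracts T cells, read 6.05, 6.06 and 5.99 in the knock out and 4.79, 4.41 and 4.40 in WT. Its groups were well apart, by 1.50 ± 0.29 (limma adjusted p = 0.0243), but the call was lost in all 6 leave-one-out fits, with an adjusted p of up to 0.129. Ccl5 differed by 0.36 ± 0.16 and Cxcl9 by 0.15 ± 0.10, and neither was called. Of 22 NF-kB targets and inflammatory cytokines, 0 were called in either direction (limma; 2 higher and 1 lower at an unadjusted p below 0.05), with a median of 0.007. Among them Il6 (0.22), Ccl2 (0.23), Nfkbia (0.14) and Tnfaip3 (0.04) were measured above the filter.

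The promoters of the genes that rose were searched for the letters GAAA, then any 2 bases, then GAAA, on both strands, the core of the interferon-stimulated response element that IRF proteins bind. The windows were those of RefSeq on GRCm38.p6, from 250 bases before to 50 after a gene's start, and matches may overlap. Among all genes tested, 387 of the 10976 with a window held a match (3.53%), as did 1131 of all 32851 windows (3.44%). Among genes called higher it was 20 of 51 with a window (39.2%), and among called effectors 12 of 23 (52.2%). Effectors that were not called held a match in 10 of 23 (43.5%). Called rises outside the effector lists had 8 of 28 (28.6%), called falls 0 of 9, and the windows of Oasl2, Irf7 and Phf11d held no match. These 8 include genes of the signalling, sensing, chemokine and MHC class I lists, namely Cxcl10, Ifih1, Ddx58, Stat2 and Psme1. The others were Trim12c, Mylk and Mitd1. Printed here, 5′ to 3′ along the gene's strand, are the windows of the 4 largest rises with a match among the genes printed from, and that of Azi2, which held none. Capitals mark the matched letters, which read TTTC, any 2 bases, TTTC where the match is on the other strand. The Ifit3 window is chr19:34583279-34583578 (+), that of Gbp3 chr3:142559794-142560093 (+), that of Cxcl10 chr5:92348840-92349139 (-), that of Trim30a chr7:104465144-104465443 (-) and that of Azi2 chr9:118040272-118040571 (+).
Ifit3: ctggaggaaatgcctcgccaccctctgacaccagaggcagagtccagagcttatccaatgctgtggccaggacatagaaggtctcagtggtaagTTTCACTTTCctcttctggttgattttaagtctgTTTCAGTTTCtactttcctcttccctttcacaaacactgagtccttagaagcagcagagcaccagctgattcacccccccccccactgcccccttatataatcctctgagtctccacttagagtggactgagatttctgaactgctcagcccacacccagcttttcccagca
Gbp3: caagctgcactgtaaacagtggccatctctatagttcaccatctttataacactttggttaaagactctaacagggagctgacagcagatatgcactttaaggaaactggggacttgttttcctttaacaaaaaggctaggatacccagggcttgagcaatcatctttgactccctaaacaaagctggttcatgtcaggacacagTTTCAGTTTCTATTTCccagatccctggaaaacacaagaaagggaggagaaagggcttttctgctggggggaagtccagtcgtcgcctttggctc
Cxcl10: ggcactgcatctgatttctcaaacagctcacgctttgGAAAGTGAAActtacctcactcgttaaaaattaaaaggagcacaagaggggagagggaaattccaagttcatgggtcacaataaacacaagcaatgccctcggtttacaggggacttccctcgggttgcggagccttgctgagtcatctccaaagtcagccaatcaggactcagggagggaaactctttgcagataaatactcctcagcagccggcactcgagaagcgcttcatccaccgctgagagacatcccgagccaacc
Trim30a: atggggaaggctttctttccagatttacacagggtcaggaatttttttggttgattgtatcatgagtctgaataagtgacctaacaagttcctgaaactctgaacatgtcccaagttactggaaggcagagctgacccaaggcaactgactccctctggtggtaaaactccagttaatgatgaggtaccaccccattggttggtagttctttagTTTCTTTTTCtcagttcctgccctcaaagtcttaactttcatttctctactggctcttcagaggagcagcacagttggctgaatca
Azi2: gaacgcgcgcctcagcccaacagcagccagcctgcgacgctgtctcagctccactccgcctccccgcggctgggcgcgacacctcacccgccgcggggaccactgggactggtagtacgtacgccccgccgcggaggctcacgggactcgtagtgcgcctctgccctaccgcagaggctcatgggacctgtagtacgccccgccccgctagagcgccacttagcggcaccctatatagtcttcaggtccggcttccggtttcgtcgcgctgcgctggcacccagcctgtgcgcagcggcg
Ifit3 and Gbp3 held 2 matches each, those of Gbp3 overlapping, and Cxcl10 and Trim30a 1 each. A second window of Gbp3, not printed, held no match, and a second one of Trim30a held 1. A match is a description of the letters and says nothing of binding in these cells.

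The gene with the smallest p of all was Azi2, and it lay among neighbours that also rose. By the gene order of the RefSeq table (GRCm38.p6), Azi2, Cmc1, Golga4 and Itga9 are 4 consecutive tested genes on chromosome 9, the chromosome of Hmgn3, and all 4 were called higher. The stretch was bounded by its called genes after the calls were seen, and it has no test. Azi2 read 7.25, 7.20 and 7.31 in the knock out and 6.25, 6.13 and 6.03 in WT (1.11 ± 0.07, limma adjusted p = 2.03e-07). Cmc1, which encodes an assembly factor of mitochondrial complex IV, read 7.30, 7.26 and 7.33 against 6.48, 6.36 and 6.27 (0.93 ± 0.07, limma adjusted p = 4.65e-06). The annotated spans of Azi2 and Cmc1 overlap in that table. Golga4, which encodes a golgin that tethers vesicles at the trans-Golgi, read 6.21, 6.25 and 6.32 against 5.44, 5.38 and 5.34 (0.87 ± 0.06, limma adjusted p = 7.37e-07). Itga9, the integrin alpha-9 chain, was dimmer, at 3.49, 3.55 and 3.48 against 3.07, 2.82 and 3.17 (0.49 ± 0.10, limma adjusted p = 0.0347). The first 3 were kept in all 6 leave-one-out fits, and Itga9 was lost in 5 of them and with only the 6 arrays in the fit.

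Other probe sets of these genes went the same way, in a fit of every probe set that called 0.416% of them. Both further Golga4 probe sets were called (0.97 and 0.94), as was a further one of Azi2 (0.62) and of Itga9 (0.72), while a dim one of Cmc1 (0.31) and another of Itga9 (0.15) were not. The next genes in order, Ctdspl (0.29 ± 0.11) and Vill (0.37 ± 0.10), did not overlap between groups and were not called, and Plcd1 beyond them was at -0.05. On the near side Gm17396 (0.03), Rbms3 (-0.05) and Tgfbr2 (-0.10) were near 0. The stretch is not next to Hmgn3, since 237 tested genes lie between them and 0 of these were called (limma; 7 higher and 10 lower at an unadjusted p below 0.05). Of the 10 tested genes on each side of Hmgn3, 0 of 20 were called (2 higher and 1 lower unadjusted), with Filip1 at 0.33 and Sh3bgrl2 at -0.40 the farthest from 0. On the whole of chromosome 9, 5 of 776 genes were called (0.644%), Hmgn3 included. The strain composition around the targeted locus is not given in the sources used here, and its part in these values was not tested.

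**Figure D4:**
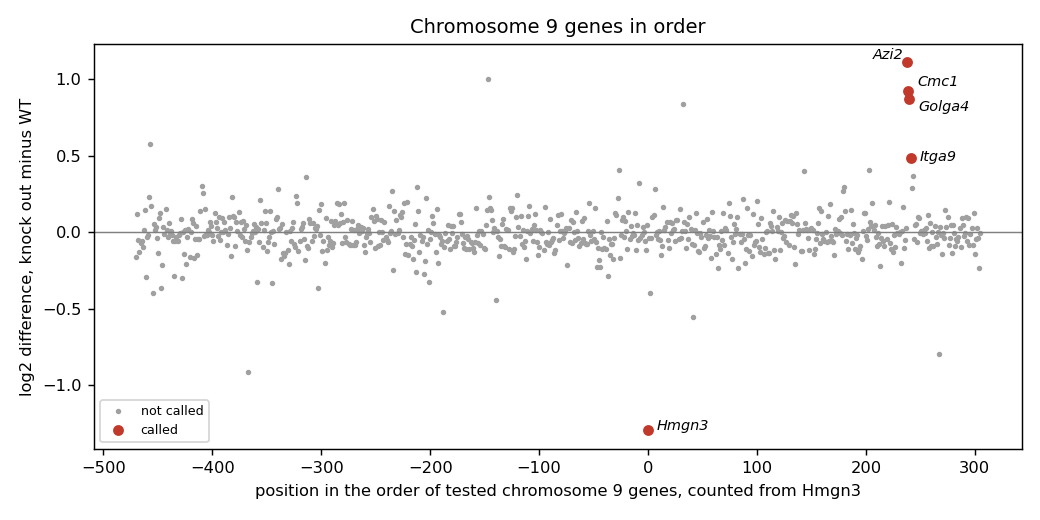
Difference between knock out and WT (vertical axis, log2) for the 776 tested genes of chromosome 9, placed by their order counted from Hmgn3 (horizontal axis). Hmgn3 is the lowest point, the genes beside it scatter around 0, and Azi2, Cmc1, Golga4 and Itga9 rise together 238 to 241 genes away.

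Other rises belonged to none of the interferon lists used here. Those lists need not be complete, so absence from them does not place a gene outside the interferon response. Tmem178, a membrane protein of the endoplasmic reticulum, read 2.86, 2.90 and 2.99 in the knock out and was below the filter level in all WT arrays. Set against that level its rise was at least 0.92 log2 (limma adjusted p = 1.45e-05), and it was kept in all 6 leave-one-out fits. Epas1, which encodes the hypoxia factor HIF-2 alpha, read 6.18, 6.82 and 6.50 against 5.62, 5.55 and 5.52 (0.94 ± 0.19, limma adjusted p = 0.0319). The knock out arrays of Epas1 were spread widely, and the call was lost in 5 of 6 leave-one-out fits. Of 20 genes of hypoxia and glycolysis, 0 were called (limma; 0 in either direction at an unadjusted p below 0.05). Ccn3, a matricellular protein, rose by 0.84 ± 0.13 (limma adjusted p = 0.00659) and its other probe set by 0.82 without a call. Tslp, an epithelial cytokine, rose by 0.88, the ubiquitin ligase Rnf213 by 0.93, the antiviral factor Samd9l by 0.88 and the Notch effector Hey2 by 0.61. Mylk, the kinase that activates smooth muscle myosin, rose by 0.68, and the collagen-binding integrin chain Itga1 by 0.43. Smaller or dimmer called rises outside the lists were those of Trim12c (0.82), Gm4951 (0.80), the complement inhibitor Serping1 (0.65), Gm20559 (0.61), Pnpla7 (0.50), Mitd1 (0.49), Heph (0.46), Nampt (0.43), 4930413G21Rik (0.36), Septin8 (0.27) and Zfy2, whose WT mean lay below the filter level (at least 0.03). Rnf213, Ccn3, Gm4951 and Gm20559 were kept in all 6 leave-one-out fits, while Hey2, Mylk and Heph were lost in all 6. Trim12c, Pnpla7, Itga1, Nampt, 4930413G21Rik, Septin8 and Zfy2 were lost in 5 each, Tslp and Serping1 in 4 and Samd9l and Mitd1 in 3. Zfy2 was also lost under 5 other settings, and Heph, Nampt and Septin8 under 3 each.

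The 13 called falls besides Hmgn3 shared no list as large as that of the rises. Car8, which encodes a carbonic anhydrase-related protein without enzyme activity, read 3.24, 3.00 and 3.24 in the knock out and 4.20, 4.29 and 3.86 in WT. The groups were apart by -0.96 ± 0.15 (limma adjusted p = 0.00461). Fzd6, a Wnt receptor of planar cell polarity, read 5.08, 4.87 and 5.07 against 5.60, 5.59 and 5.49, a difference of -0.56 ± 0.07 (limma adjusted p = 0.000488). Among 26 measured genes of the Wnt pathway it was the called one. Both Car8 and Fzd6 were kept in all 6 leave-one-out fits, as were the oxysterol-binding protein Osbpl3 (-0.44 ± 0.06) and the peroxisomal racemase Amacr (-0.42 ± 0.07). The second Fzd6 probe set was dim and differed by 0.02.

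Satb1, which folds chromatin into loops, read 3.30, 3.08 and 3.34 in the knock out and 4.20, 3.93 and 3.81 in WT (-0.74 ± 0.14, limma adjusted p = 0.0259). A second Satb1 probe set fell by 0.82, the other, dim one differed by -0.10 with overlapping groups, and the call of the first was lost in 5 of 6 leave-one-out fits. Nr4a2, an orphan nuclear receptor induced early after stimulation, read 5.43, 5.23 and 5.39 against 6.05, 5.93 and 5.83 (-0.58 ± 0.10, limma adjusted p = 0.00732). It was lost without knock out replicate 2 or WT replicate 1 (adjusted p = 0.0593 and 0.0518). Its relatives Nr4a1 (-0.09) and Nr4a3 (-0.02) were not called, nor were any of 16 immediate early genes (limma; 1 lower and 0 higher at an unadjusted p below 0.05). The BMP antagonist Grem1 was bright, at a mean of 8.84 against 9.27, and fell by 0.43. It was the called one among 22 genes of the TGF-beta and BMP pathway and was lost in all 6 leave-one-out fits. Samd5 (-0.55), Amot, a scaffold of Hippo signalling (-0.51), Ank3, a membrane anchor (-0.47), and the mitochondrial glycerol phosphate dehydrogenase Gpd2 (-0.43) completed the called falls with Hoxa10 and its neighbour Hoxa11os. Samd5 was lost in all 6 leave-one-out fits, Amot and Hoxa11os in 5 each, Gpd2 in 4 and Ank3 in 3. Asb5, chosen after its value was seen as the lowest of all genes in the plot, differed by -1.90 ± 0.68 (limma adjusted p = 0.385) and was not called.

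Hox genes record position along the body and the limb, and 1 of 24 measured was called, none of them higher. Hoxa10 read 4.52, 3.56 and 4.13 in the knock out and 5.19, 4.97 and 5.06 in WT. It fell by 1.00 ± 0.20 (limma adjusted p = 0.0312). The knock out arrays were spread over almost as much as the difference, replicate 2 being lowest, and the call was lost in 5 of 6 leave-one-out fits and with only the 6 arrays in the fit. All 10 measured genes of paralogs 9 to 13 were below 0, with a median of -0.28 and 5 without overlap (8.8% of all genes for a fall). By contrast, 10 of 14 of paralogs 2 to 8 were above 0, with a median of 0.08 and 4 without overlap (7.09% for a rise). This split by paralog was chosen after the values were seen and has no test. Hoxa11 differed by -0.66 ± 0.15 (limma adjusted p = 0.0815), Hoxa9 by -0.58 ± 0.14 and Hoxc10 by -0.44 ± 0.15. Hoxc4 (0.31 ± 0.08) and Hoxb5 (0.30 ± 0.13) were on the other side, without overlap. Hoxa11os, a transcript antisense to Hoxa11, was called lower with its knock out mean below the filter level, which leaves a fall of at least 0.08.

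**Figure D5:**
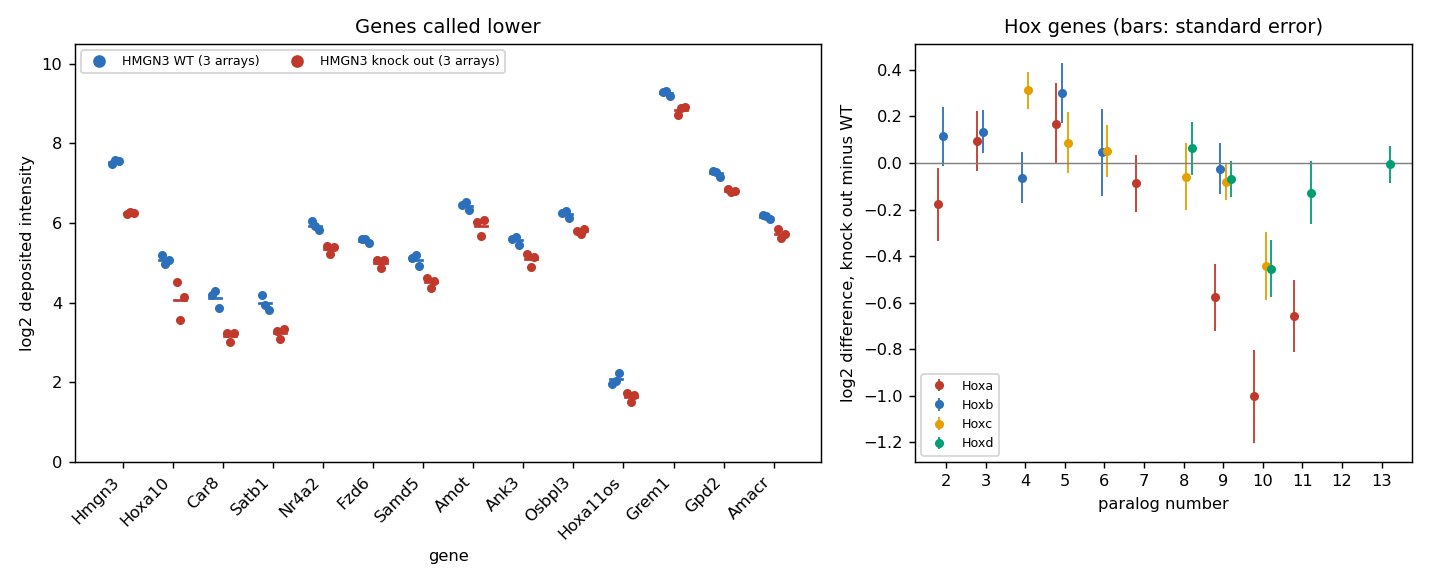
Left, log2 deposited intensity (vertical axis) of the 14 genes called lower (horizontal axis) in the 3 WT and 3 knock out arrays, with lines at the means. Right, difference between knock out and WT (log2, bars are 1 SE) of 24 Hox genes by paralog number. The WT points lie above the knock out points in every gene at left, and the genes of paralogs 9 to 13 lie at or below 0 at right, with Hoxa10 lowest.

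Several programmes of fibroblasts held no called gene. Over all genes tested, 46.9% were above 0, and 3.83% were higher and 4.64% lower at an unadjusted p below 0.05. Rises without overlap made up 7.09% of all genes and falls without overlap 8.8%. Of 23 p53 targets and CDK inhibitors, 0 were called, 9 were lower and 0 higher at an unadjusted p below 0.05, and the median was -0.12. Falls without overlap numbered 12 of the 23 and rises 1. The imprinted inhibitor Cdkn1c differed by -0.70 ± 0.19 (limma adjusted p = 0.159), Cdkn2a by -0.36 ± 0.10, Cdkn2b by -0.30 ± 0.11 and Cdkn1a by -0.20 ± 0.07, none overlapping between groups. All 17 measured genes of cholesterol synthesis were below 0, none called, with a median of -0.09 and 1 lower at an unadjusted p below 0.05. Of 38 extracellular matrix genes, 0 were called (3 higher at an unadjusted p below 0.05) and 30 were above 0, with a median of 0.10. Among these 38, rises without overlap numbered 17 and falls 3. Col1a2, the collagen I chain that was brightest among them, differed by 0.07 ± 0.05, and Col3a1 by 0.19 ± 0.12. DNA replication had 0 of 27 genes called and mitosis 0 of 24, with medians of 0.05 each (1 and 0 higher at an unadjusted p below 0.05). Above 0 were 21 of the 27 and 20 of the 24, with 3 and 4 rises without overlap and 0 such falls in each. Of 16 genes of the unfolded protein and amino acid response 0 were called (1 higher at an unadjusted p below 0.05) and 14 were above 0. Among these 16, rises without overlap numbered 8 and falls 1. Among 33 mesenchymal patterning factors 0 were called, 7 were higher and 3 lower at an unadjusted p below 0.05, and Foxd1 (0.96 ± 0.24, limma adjusted p = 0.111) was the farthest from 0. Of the genes linked to HMGN3 in earlier work on beta cells and the glycine transporter, 4 were measured and 0 called (0 unadjusted), Slc6a9, the transporter, differing by 0.15 ± 0.09.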

How the data were processed

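RNA of the 6 compared samples was read on Affymetrix mouse genome arrays. The authors deposited linear intensities, 1 per probe set, and the submitters' processing notes name RMA without a version. Here log2 was taken with no further normalization, and log2 differences are differences of those deposited values. Control probe sets (64 of 45101) were left out. By GEO's platform annotation 34945 probe sets had 1 gene symbol, 932 several and 9160 none. Genes were named from those with 1 symbol, 18193 symbols in all. Probe sets were left out where no mean of any primary MEF group reached the 40th percentile of group means. The brightest remaining one over all primary MEF arrays stood for each gene.

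A mean per group was fitted over all 18 primary MEF arrays with lmFit and eBayes of limma 3.58.1 in R 4.3.3 (the package data.table, version 1.17.8), two-sided, with Benjamini-Hochberg adjustment, and the script was tested on simulated data. Figures used matplotlib 3.10.9 and pandas 2.3.3. No 2 arrays were identical, and their number limits the precision. Labels and files give no batch. Same-numbered arrays deviated with correlations of -0.09, -0.01 and -0.34, so the numbers were not taken as pairs. The rule for names was the Hmgn genes, every called gene, called and up to 4 bright members of each list, and the 10 tested genes on each side of Hmgn3. Full values were planned for the 15 largest rises and falls. They are given for only part of these, and for some smaller ones as well. Other members are named where a sentence calls for them and were chosen after their values were seen. The members, lists and rules were chosen with earlier results of these data known. A group mean under the filter level was set to that level, and the difference is then a bound. Alternatives were the 6 arrays alone, no filter, every probe set, renewed quantile normalization, a replicate block, a trended robust moderation, Y-linked RNA as covariate, and leaving out each array.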

Additional observations from a re-analysis of the deposited data

How the results depend on the processing

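The 80 calls became 141 with only the 6 compared arrays in the fit (106 higher, 35 lower), of which 64 were shared. They were 66 without the filter, 94 after renewed quantile normalization, 86 with trended robust moderation and 99 with Y-linked RNA as covariate. With every probe set on its own, 119 were called, 28 of them lower. Leaving out 1 array at a time gave 31 to 89 calls, 24 to 63 higher, 5 to 26 lower and 10 to 25 effectors higher. These fits have fewer samples. The median difference of the effectors ran from 0.60 to 0.66 over all settings. Of the 80 genes, 27 were called in all 12 refits by gene (22 higher, 5 lower), and 0 changed sign in any. The replicate block gave 79 calls (62 higher, 17 lower), 69 of them shared, and 30 effectors higher, but the arrays share only a number. Of 57 further probe sets of called genes, 52 had the same sign and 20 were called the same way. The 5 of opposite sign belong to Amot, Fzd6, Nr4a2, Samd5 and Septin8. Dim genes have differences given as bounds only.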

Other observations

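With only the 6 compared arrays in the fit, 77 further genes were called, 52 higher and 25 lower, and 7 of these belonged to the interferon effector lists. Among them were Ifit1 (2.02), Ifi204, a DNA-binding protein of the interferon-inducible p200 family (1.13), Irgm2 (0.98), Slfn8 (0.98), Parp14 (0.87) and Trim34a (0.83). Trim30d (1.27), a relative of Trim30a, and the STAT-interacting Nmi (0.77) stood beside them. Other genes called in that fit went both ways, and those given next were chosen after their values were seen. The leucine-rich repeat proteins Prelp and Islr were higher by 1.47 ± 0.21 and 1.00 ± 0.09, Ccn5 by 0.94, the carrier Apod by 0.77, the calcification inhibitor Mgp by 0.64, Bmp4 by 0.62 and Col18a1 by 0.51. The Wnt inhibitor Dkk2 was lower, at -0.97, as were the peptide hormone gene Cck (-0.80), Sema3c (-0.67), Pcolce2 (-0.56) and Smoc2 (-0.33). None of these was called when the spread of all 18 arrays was used, with limma adjusted p-values of 0.131 for Prelp, 0.156 for Islr and 0.69 for Bmp4.

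Of 4058 probe sets without a single gene symbol, 14 were called (0.345%), 11 higher by 0.32 to 1.56 and 3 lower by -0.55 to -0.81. They are not named here.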
